A study of Mus musculus with 24 samples.

Results

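Bone marrow-derived macrophages (BMDMs) given conditioned medium (CM) from NRF2 KO LL2 cells together with CDDO-Me were compared with BMDMs given control media and CDDO-Me. The comparison holds 6 of the 24 libraries of the series, 3 from NRF2 KO CM/CDDO-Me and 3 from media/CDDO-Me, and was made over the 13661 genes that passed a filter on low values, of 35770 gene names. The macrophages were grown from the marrow of C57BL/6 mice in M-CSF and carried no engineered allele. LL2 is a mouse Lewis lung carcinoma line, and the NRF2 gene was knocked out in these cancer cells, not in the macrophages. Medium was conditioned over 48 h and given to macrophages at 75% CM, and RNA was taken after 24 h with CDDO-Me at 100 nM. The control media had stood for the same time without cells. Values are also given for NRF2 KO CM/vehicle and media/vehicle BMDMs, which had the same media without the drug, and for the KEAP1 KO CM/CDDO-Me and WT CM/CDDO-Me groups, which had CM from KEAP1 KO or unedited LL2 cells with the drug. Marrow cells were split over wells, and nothing in the labels ties wells to separate mice, so p-values measure the spread between these samples. The number of clones behind the NRF2 KO line is not given in the sources used here.

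NRF2, encoded by Nfe2l2, is a transcription factor that switches on antioxidant and detoxifying genes, and KEAP1 is the adaptor that sends it for degradation. CDDO-Me is a synthetic oleanane triterpenoid that binds KEAP1 and so releases NRF2. Macrophages respond to soluble products of cancer cells by changing the cytokines, chemokines, receptors and metabolic enzymes that they make, and the comparison shows which genes answered CM from cells without NRF2 when the drug was present in both groups. Because the knockout was in the cancer cells, Nfe2l2 in the macrophages is no check of the labels. Nfe2l2 was at 173, 164 and 149 TPM in media/CDDO-Me and at 178, 181 and 255 TPM in NRF2 KO CM/CDDO-Me. TPM is a share of all transcripts corrected for gene length, so it keeps no depth, and no interval of counting error can be given.

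Replicate 3 of NRF2 KO CM/CDDO-Me stood apart from its group. It listed 16299 genes above 0, and its median absolute log2 deviation from the other 2 libraries of its group was 0.441. Replicate 3 of NRF2 KO CM/vehicle stood apart in the same way, with 15702 genes and a deviation of 0.577. The other 22 libraries listed 17817 to 18993 genes and deviated by 0.101 to 0.334. The summed TPM of 13 mitochondrially encoded genes was 24360 to 29460 in media/CDDO-Me and 24940, 26620 and 47400 in NRF2 KO CM/CDDO-Me. It was 28100 to 30500 in media/vehicle and 30780, 26910 and 98700 in NRF2 KO CM/vehicle. Results are therefore also given without replicate 3 of both NRF2 KO CM groups for the genes and lists whose values moved most.

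The number of genes that differed under CDDO-Me depended on the fit. Of the 13661 genes tested, 26 passed an adjusted p of 0.05 (0.190%), 21 higher (0.154%) and 5 lower (0.0366%) in NRF2 KO CM/CDDO-Me than in media/CDDO-Me. This main fit ignored the replicate numbers, and with a block for them 160 genes passed. Genes for an acute-phase protein, formyl peptide receptors and a neutrophil-attracting chemokine led the rises, namely Saa3, Fpr1, Fpr2 and Cxcl5. Genes past the threshold that were lower included the stress-induced transcription factor Atf3 and the Rac regulator Arhgap25. An unadjusted p under 0.05 was reached by 1001 genes (7.33%), and the 3 values of each group did not overlap for 1873 genes (13.7%). The groups did not overlap for any of the 26 genes that passed. In bulk samples a change in the number of cells of a type and a change in RNA per cell cannot be told apart.

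The differences are on the log2(scaled TPM + 1) scale, which understates the change of genes with low levels, and each standard error (SE) comes from a fit of all 8 groups. A block for the replicate number raised the count to 160, of which 96 were higher and 64 lower, and all 26 were among them. With weights that give less influence to libraries that stand apart, 754 genes passed, 384 higher and 370 lower, so that 50.9% were higher in place of 80.8%. When only the 6 libraries compared, or only the 12 libraries with CDDO-Me, were fitted, 0 genes passed by limma, with 638 and 1004 at an unadjusted p under 0.05. Leaving out 1 library at a time gave 6, 6 and 4 genes without media/CDDO-Me replicate 1, 2 and 3, and 4, 15 and 6 genes without NRF2 KO CM/CDDO-Me replicate 1, 2 and 3. Fpr1, Gda and Nxpe5 kept their call without each of these libraries, and the other 23 genes lost it without at least 1. Without replicate 3 of both NRF2 KO CM groups, 8 of the 26 remained past the threshold, Saa3, Fpr1, Gda, Nxpe5, Vdr, Iigp1, Arhgap25 and Pgap6, and 25 of the 26 kept their sign, the remaining one, Gpr82, having dropped below the filter.

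**Figure D1:**
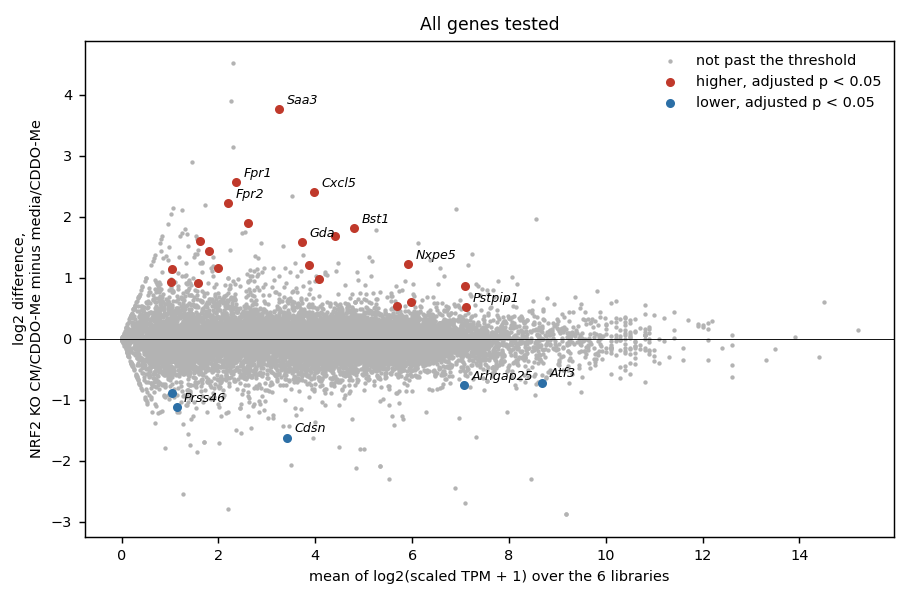
Log2 difference between NRF2 KO CM/CDDO-Me and media/CDDO-Me (vertical axis) against the mean of log2(scaled TPM + 1) over the 6 libraries (horizontal axis), 1 point per gene tested. The 21 red points are genes that passed and were higher, the 5 blue points those that passed and were lower, and several grey points with larger differences did not pass.

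Saa3, which encodes a serum amyloid A protein of the acute-phase response, had the largest rise of the genes that passed. Its level was 1.41, 1.60 and 1.94 TPM in the media/CDDO-Me libraries and 42.5, 52.9 and 19.1 TPM in the NRF2 KO CM/CDDO-Me libraries. Every library with NRF2 KO CM was far above every control, and replicate 3 was the lowest of them. The mean rose from 1.65 ± 0.270 to 38.2 ± 17.3 TPM (SD, n = 3), a ratio of 23.1, with a log2 difference of 3.77 (SE 0.68, adjusted p = 0.0286 by limma). It passed without replicate 3 of both NRF2 KO CM groups (log2 4.15, adjusted p = 0.0141), but in none of the fits that left out 1 of the 6 libraries alone (adjusted p from 0.0646 to 0.118).

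Fpr1 and Fpr2 encode receptors through which phagocytes sense formylated peptides from bacteria and mitochondria. Fpr1 was at 1.44, 1.57 and 0.615 TPM in media/CDDO-Me and at 10.5, 9.89 and 15.9 TPM in NRF2 KO CM/CDDO-Me. Its mean rose from 1.21 ± 0.517 to 12.1 ± 3.29 TPM (SD, n = 3), a log2 difference of 2.57 (SE 0.36, adjusted p = 0.00440 by limma). Fpr2 was at 0.593, 1.84 and 1.22 TPM against 8.20, 6.32 and 14.4 TPM, a log2 difference of 2.23 (SE 0.42, adjusted p = 0.0328). For both receptors replicate 3 was the highest of the libraries with NRF2 KO CM, and without replicate 3 of both NRF2 KO CM groups Fpr1 passed (log2 2.33, adjusted p = 0.0329) while Fpr2 did not (log2 1.88, adjusted p = 0.116). The related genes lie close together on chromosome 17 of GRCm39, Fpr1 from 18096733 to 18104202 on the minus strand and Fpr2 from 18108070 to 18114215 on the plus strand. Saa3, Fpr1, Fpr2, Klra2 and Iigp1 belong to families of related genes, between which pseudo-alignment can divide reads, so the split within a family is uncertain.

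Cxcl5, a CXC chemokine that attracts neutrophils, was at 7.88, 6.51 and 4.14 TPM in media/CDDO-Me and at 46.9, 35.4 and 28.0 TPM in NRF2 KO CM/CDDO-Me. The lowest library with NRF2 KO CM was above the highest control. The mean rose from 6.18 ± 1.89 to 36.7 ± 9.52 TPM (SD, n = 3), a log2 difference of 2.41 (SE 0.49). Its adjusted p of 0.0481 by limma was the closest to the threshold of the genes named here as past it, and it was above the threshold under both other scalings, both other pseudocounts, no filter and no trend (0.0502 to 0.0869), and without any 1 of the 6 libraries (0.0848 to 0.207). Tnfsf14, the TNF-family ligand LIGHT, was at 1.56, 1.49 and 0.573 TPM against 4.78, 5.15 and 4.61 TPM and rose by 1.44 on the log2 scale (SE 0.28, adjusted p = 0.0392).

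Several cell-surface and matrix genes were among those that rose. Bst1 encodes CD157, an ectoenzyme of the ADP-ribosyl cyclase family found on myeloid cells, and Klra2 a receptor of the Ly49 family. Bst1 was at 14.5, 13.2 and 15.4 TPM in media/CDDO-Me and at 44.0, 34.0 and 95.8 TPM in NRF2 KO CM/CDDO-Me, a log2 difference of 1.82 (SE 0.32, adjusted p = 0.0269 by limma). Klra2 was at 0.729, 0.981 and 0.653 TPM against 4.36, 2.38 and 7.77 TPM, a log2 difference of 1.61 (SE 0.27, adjusted p = 0.0229). In both genes replicate 3 with NRF2 KO CM was the highest library, and without replicate 3 of both NRF2 KO CM groups the log2 differences were 1.34 and 1.22 (adjusted p = 0.0518 for each). Vcan, which encodes the matrix proteoglycan versican, was at 13.7, 15.8 and 6.38 TPM against 38.3, 42.6 and 33.4 TPM, a log2 difference of 1.69 (SE 0.30, adjusted p = 0.0269). Ptn, which encodes the heparin-binding growth factor pleiotrophin, was at 3.21, 2.44 and 1.34 TPM against 11.3, 15.01 and 7.74 TPM, a log2 difference of 1.90 (SE 0.35, adjusted p = 0.0286). Replicate 3 of media/CDDO-Me was the lowest library for both Vcan and Ptn.

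Gda and Nxpe5 had the smallest adjusted p-values. Gda, which encodes guanine deaminase of purine breakdown, was at 7.85, 8.03 and 5.09 TPM in media/CDDO-Me and at 20.8, 18.4 and 29.7 TPM in NRF2 KO CM/CDDO-Me. Its log2 difference was 1.59 (SE 0.18, adjusted p = 3.86e-04 by limma), and it lies on chromosome 19 of GRCm39 from 21368671 to 21450809 on the minus strand. Nxpe5 was at 42.6, 42.1 and 35.2 TPM against 114, 93.1 and 78.0 TPM, a log2 difference of 1.23 (SE 0.15, adjusted p = 5.33e-04). Each stayed past the threshold under the other scalings, filters, pseudocounts, weights and left-out libraries, but not in the fits of only the 6 or only the 12 CDDO-Me libraries, and in the former the adjusted p was 0.354 for Gda and 0.218 for Nxpe5. Vdr, the vitamin D receptor, was at 9.81, 10.7 and 6.46 TPM against 28.6, 22.9 and 15.01 TPM and rose by 1.21 on the log2 scale (SE 0.20, adjusted p = 0.0220).

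The remaining rises were smaller. Ctsc encodes cathepsin C, which activates serine proteases of granules, and its level went from 118, 111 and 85.8 TPM to 178, 170 and 221 TPM, a log2 difference of 0.87 (SE 0.17, adjusted p = 0.0387 by limma). Iigp1, an interferon-inducible immunity-related GTPase, was low in both groups, at 1.44, 1.48 and 0.828 TPM against 3.02, 2.96 and 3.53 TPM, a log2 difference of 0.91 (SE 0.15, adjusted p = 0.0229). The remaining 7 genes that rose fall outside the rule for named genes and were picked after their values were seen. Among them, Sting1, the adaptor of cytosolic DNA sensing, went from 51.6, 56.9 and 46.0 to 72.2, 72.6 and 90.4 TPM. Pstpip1, a cytoskeletal adaptor that binds pyrin, went from 117, 114 and 123 to 169, 169 and 166 TPM. Rasgrp4, an exchange factor for Ras, went from 11.8, 11.2 and 11.2 to 21.7, 23.9 and 24.6 TPM. Pgap6, Medag, Brinp3 and the orphan receptor Gpr82 had log2 differences of 0.53, 1.17, 1.15 and 0.93.

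The 5 genes that fell cover a wide range of levels. Atf3, a transcription factor of the ATF/CREB family induced by stress, was at 559, 538 and 537 TPM in media/CDDO-Me and at 341, 371 and 277 TPM in NRF2 KO CM/CDDO-Me, and fell by 0.72 on the log2 scale (SE 0.14, adjusted p = 0.0387 by limma). Arhgap25, a GTPase-activating protein for Rac, was at 174, 176 and 187 TPM against 106, 116 and 92.3 TPM and fell by 0.76 (SE 0.12, adjusted p = 0.0174). Cdsn, which encodes the adhesion protein corneodesmosin, was at 17.7, 22.8 and 15.1 TPM against 7.08, 6.90 and 2.76 TPM and fell by 1.62 (SE 0.30, adjusted p = 0.0300). Replicate 3 with NRF2 KO CM was the lowest library for these 3 genes. Prss46, a serine protease gene, and Tox2, an HMG-box transcription factor gene, were near or below 3 TPM in all 6 libraries and fell by 1.12 and 0.89.

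**Figure D2:**
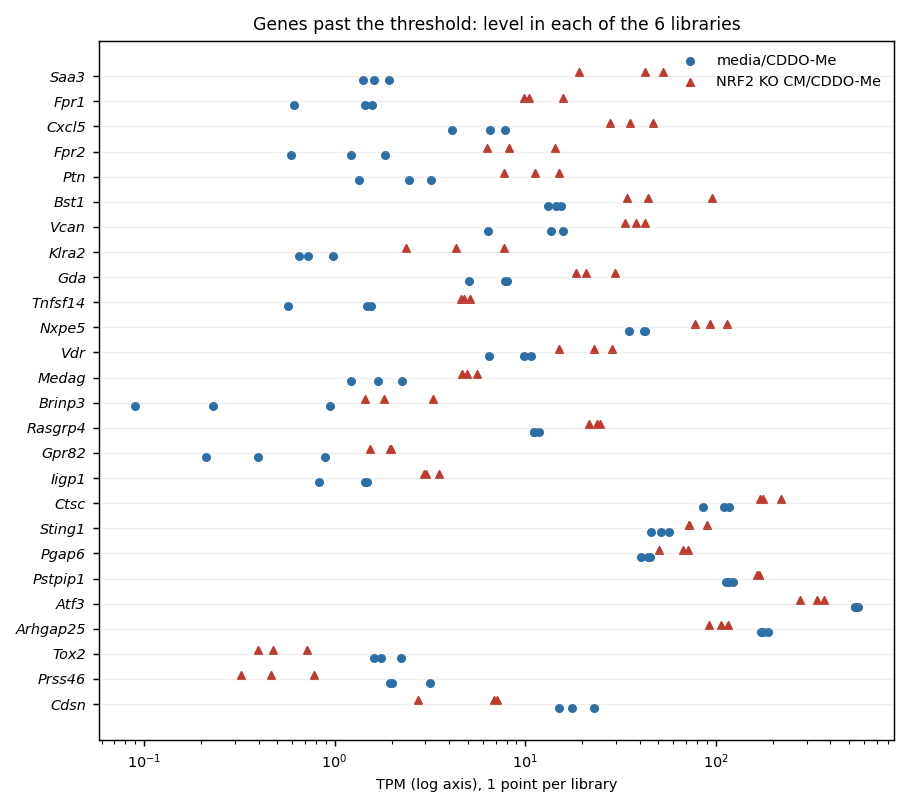
TPM (log axis) of the 26 genes that passed the threshold, 1 point per library, in media/CDDO-Me (blue circles) and NRF2 KO CM/CDDO-Me (red triangles), ordered by log2 difference. The points of the 2 groups do not overlap for any of these genes, and Saa3 at the top went from 1.65 to 38.2 TPM on average.

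Among genes that did not pass, those with the smallest p in the lower direction included genes of matrix turnover and lipid handling. Cemip, which takes part in hyaluronan breakdown, was at 26.0, 36.4 and 12.2 TPM against 5.29, 7.18 and 2.40 TPM, with an adjusted p of 0.0701 by limma (1.44e-05 with the replicate block). Within each replicate number Cemip was several times lower with NRF2 KO CM, while its level differed between the numbers. Pparg, a nuclear receptor of lipid metabolism, was at 49.0, 51.3 and 44.6 TPM against 34.0, 34.0 and 31.3 TPM (adjusted p = 0.0953, with the block 0.0398). Angptl2, Actn4, Ankrd13b and Tmcc3 had log2 differences of -0.66, -0.37, -0.75 and -0.63 and adjusted p-values of 0.0620 to 0.0953, all under 0.05 with the block.

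The promoters of 5 of the 12 genes with the largest rises are shown so that the letters can be set beside the values: Saa3, which rose most, and Cxcl5, Klra2, Gda and Tnfsf14, which were the only ones of the 12 to hold one of the motifs searched. Each is the 250 bases before the GENCODE canonical start, 5′ to 3′, on GRCm39. Capitals mark matches on either strand to the NF-kB consensus, to AP-1 (TGANTCA), to C/EBP (TTGCNNAA) or to the core of the antioxidant response element that NRF2 binds (TGACNNNGC).
Saa3: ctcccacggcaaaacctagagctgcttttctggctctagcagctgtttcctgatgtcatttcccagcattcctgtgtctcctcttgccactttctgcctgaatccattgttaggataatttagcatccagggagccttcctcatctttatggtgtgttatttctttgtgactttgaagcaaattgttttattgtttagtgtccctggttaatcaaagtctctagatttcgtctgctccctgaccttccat
Cxcl5: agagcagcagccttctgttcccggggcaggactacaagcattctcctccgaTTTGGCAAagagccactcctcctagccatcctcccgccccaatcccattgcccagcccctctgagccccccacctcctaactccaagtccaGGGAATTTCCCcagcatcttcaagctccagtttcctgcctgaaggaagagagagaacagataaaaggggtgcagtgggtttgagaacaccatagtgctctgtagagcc
Klra2: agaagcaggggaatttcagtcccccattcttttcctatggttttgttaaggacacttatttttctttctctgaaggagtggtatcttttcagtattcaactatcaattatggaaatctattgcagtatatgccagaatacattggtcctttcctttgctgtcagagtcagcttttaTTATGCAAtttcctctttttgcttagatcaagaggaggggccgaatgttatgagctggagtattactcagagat
Gda: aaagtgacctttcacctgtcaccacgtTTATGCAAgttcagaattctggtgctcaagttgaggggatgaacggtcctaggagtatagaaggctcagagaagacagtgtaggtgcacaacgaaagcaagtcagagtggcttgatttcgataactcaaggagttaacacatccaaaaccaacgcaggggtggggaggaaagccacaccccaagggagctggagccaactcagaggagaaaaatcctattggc
Tnfsf14: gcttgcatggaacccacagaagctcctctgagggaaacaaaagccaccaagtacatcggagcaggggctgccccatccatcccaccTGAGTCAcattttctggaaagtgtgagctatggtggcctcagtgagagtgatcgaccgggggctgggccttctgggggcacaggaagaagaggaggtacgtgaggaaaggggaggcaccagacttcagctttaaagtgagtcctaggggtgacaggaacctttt
The coordinates are chr7:46365577-46365826 (minus strand) for Saa3, chr5:90906987-90907236 (plus) for Cxcl5, chr6:131224331-131224580 (minus) for Klra2, chr19:21450037-21450286 (minus) for Gda and chr17:57501178-57501427 (minus) for Tnfsf14. The Cxcl5 window held 2 overlapping NF-kB matches whose first bases are 108 and 107 bases before the start, and a C/EBP match. Klra2 and Gda held a C/EBP match and Tnfsf14 an AP-1 match, and Saa3 held none of the 4. Among the promoters of the 21 genes that rose, 2 held the NF-kB consensus (9.52%, against 8.36% of 13579 promoters of tested genes), 1 AP-1 (4.76% against 4.83%), 4 C/EBP (19.0% against 8.23%) and 1 the antioxidant response element core (4.76% against 10.5%). These are matches of letters only.

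Next, the same media without the drug were compared, to see whether the differences depended on CDDO-Me. Between NRF2 KO CM/vehicle and media/vehicle, 1 gene of 13661 passed (0.00732%), Nxpe5, with 1649 at an unadjusted p under 0.05 (12.1%). Its level was 33.2, 30.7 and 33.4 TPM in media/vehicle and 79.2, 63.5 and 55.4 TPM in NRF2 KO CM/vehicle, a log2 difference of 0.99. All 26 genes that passed with CDDO-Me had a difference of the same sign with vehicle, where 70.8% of all genes tested had the same sign in both. Same-numbered libraries of the 2 NRF2 KO CM groups deviated together from their group means (r of 0.504, 0.588 and 0.719 across genes). Replicates 1 and 2 of these groups also correlated across numbers (r of 0.473 and 0.585), and replicate 3 stood apart in both groups. The comparisons with and without the drug are therefore not independent. The groups with vehicle did not overlap for 15 of the 26 (12.6% of all genes). The median log2 difference of the 21 genes that rose was 1.23 with CDDO-Me and 0.59 with vehicle, and that of the 5 genes that fell was -0.89 and -0.50. All 26 were smaller with vehicle, but they had been chosen for their difference with CDDO-Me.

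The interaction contrast tests whether the effect of NRF2 KO CM differed between CDDO-Me and vehicle. By limma 0 genes passed, with 358 of 13661 at an unadjusted p under 0.05 (2.62%), among them 15 of the 26. The 26 were chosen for their difference with CDDO-Me, which is part of this contrast. Their number and their unadjusted p-values here therefore cannot show that they depended on the drug. Fpr1 had the smallest p of the 26. It was at 0.323, 0.445 and 0.0585 TPM in media/vehicle and at 0.801, 0.426 and 0.669 TPM in NRF2 KO CM/vehicle, so the 2 groups overlapped without the drug, and the difference between the effects was 2.22 on the log2 scale (SE 0.51, unadjusted p = 3.67e-04, adjusted p = 1.00). Bst1 was at 1.77, 2.09 and 3.02 TPM against 2.43, 2.71 and 4.27 TPM with vehicle, with an interaction of 1.497 (SE 0.46, unadjusted p = 0.00414, adjusted p = 1.00). Pstpip1 averaged 86.0 ± 2.88 and 86.5 ± 7.13 TPM (SD, n = 3) with vehicle, where its log2 difference was 0.0068. Nxpe5, Iigp1 and Prss46 had log2 differences with vehicle and with CDDO-Me of 0.99 and 1.23, 0.85 and 0.91, and -1.03 and -1.12, with unadjusted interaction p-values of 0.251, 0.796 and 0.774.

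**Figure D3:**
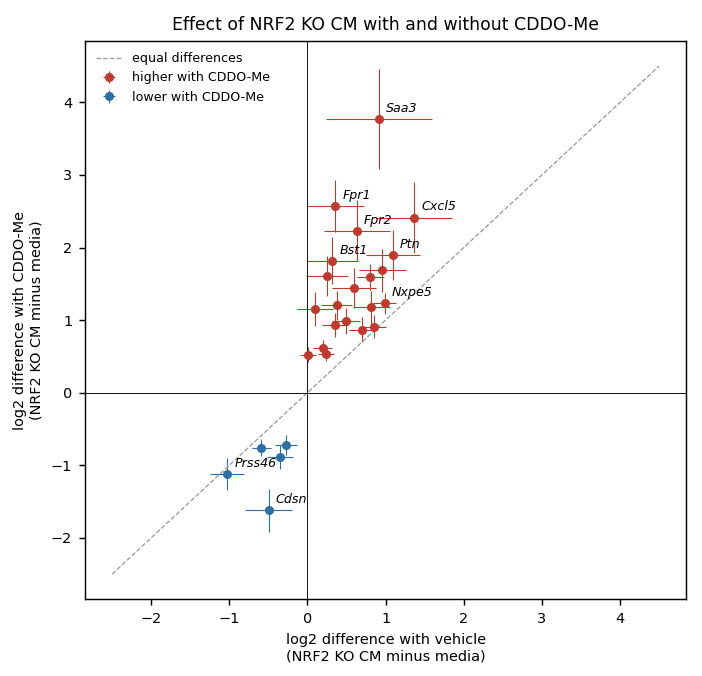
Log2 difference between NRF2 KO CM and control media with CDDO-Me (vertical axis) and with vehicle (horizontal axis) for the 26 genes that passed with CDDO-Me, bars are SE. Every point lies on the same side of 0 in both directions, and those of Fpr1, Saa3 and Bst1 lie far above the dashed line of equal differences.

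CM from unedited LL2 cells was compared directly with NRF2 KO CM, both with CDDO-Me, to show where it differed from medium conditioned by the parental line. A total of 3558 genes passed (26.0%), 1952 higher (14.3%) and 1606 lower (11.8%) with WT CM. Without scaling between libraries 34.0% of 4041 genes were higher, against 54.9% with it, and the median of all genes moved from -0.0041 to -0.145. Fpr1 averaged 0.571 ± 0.303 TPM with WT CM and 12.1 ± 3.29 TPM with NRF2 KO CM (SD, n = 3), a log2 difference of -2.98 (SE 0.36, adjusted p = 3.39e-06 by limma). Ptn, Vcan and Medag were likewise lower with WT CM than with NRF2 KO CM, by -2.88, -1.97 and -0.74 on the log2 scale (adjusted p = 2.82e-06, 4.52e-05 and 0.0238). Klra2, Bst1, Ctsc and Iigp1 were higher with WT CM, by 3.13, 3.40, 3.58 and 8.86 on the log2 scale (adjusted p from 1.48e-18 to 1.32e-07). Iigp1 reached 1738 ± 124 TPM with WT CM and CDDO-Me, against 3.17 ± 0.311 TPM with NRF2 KO CM and CDDO-Me. For Saa3, Cxcl5, Fpr2 and Gda the difference between WT CM and NRF2 KO CM did not pass, with log2 values of 1.53, -0.84, 0.74 and 0.24 (SE 0.68, 0.49, 0.42 and 0.18).

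Set beside the same media/CDDO-Me controls, the 3 conditioned media gave different values for these genes. Saa3 differed from control media by 3.77 with NRF2 KO CM, 5.30 with WT CM and 5.52 with KEAP1 KO CM on the log2 scale. Fpr1 differed by 2.57, -0.40 and 0.96, Vcan by 1.69, -0.28 and 0.59, and Bst1 by 1.82, 5.22 and 5.18. Atf3 differed by -0.72, -0.91 and -1.19 and Arhgap25 by -0.76, -1.43 and -1.62. The 3 comparisons share their controls, so these values are not independent.

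**Figure D4:**
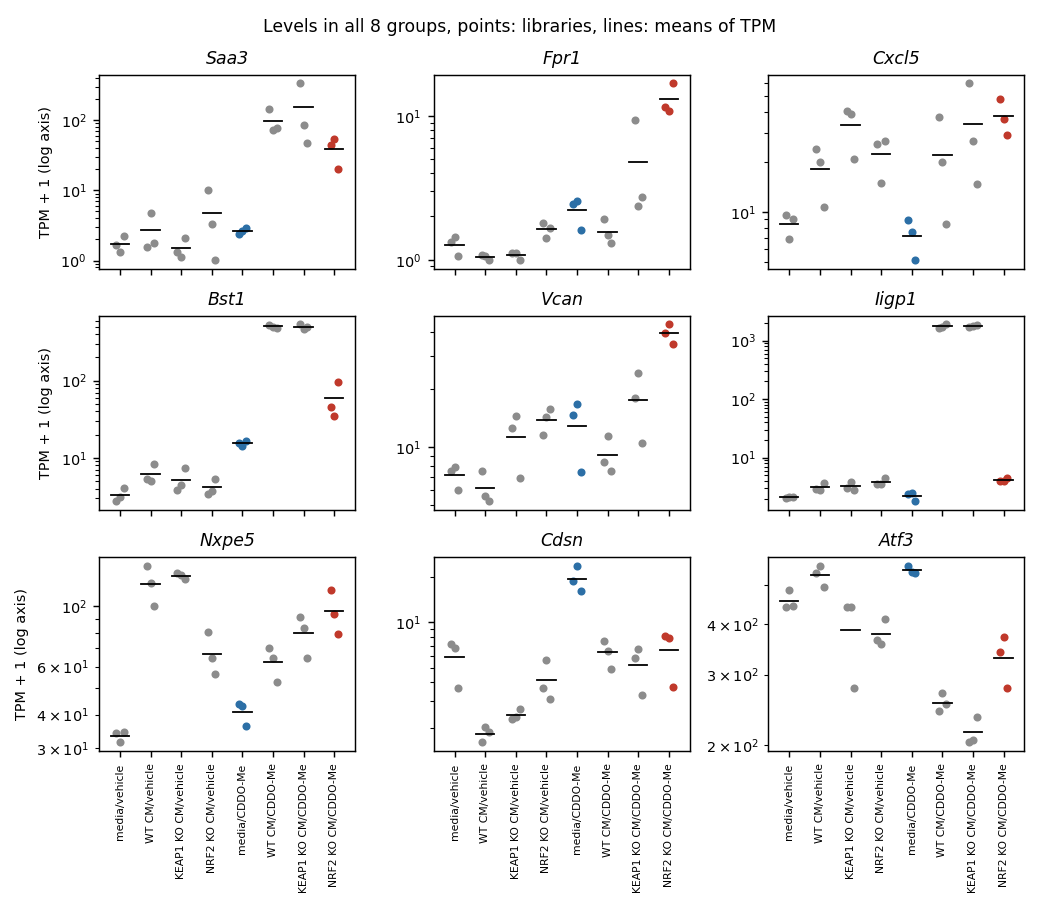
TPM + 1 (log axes that differ between panels) of 9 genes in all 8 groups, 1 point per library, with lines at the mean of TPM. NRF2 KO CM/CDDO-Me is red and media/CDDO-Me blue, and Fpr1 and Vcan had their highest mean in NRF2 KO CM/CDDO-Me, while Bst1 and Iigp1 were far higher with WT or KEAP1 KO CM and CDDO-Me.

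NRF2 targets, which CDDO-Me induces, were described next. Of 31 tested, 0 passed between NRF2 KO CM/CDDO-Me and media/CDDO-Me by limma (0.190% of all genes did, so 0 was near that share). An unadjusted p under 0.05 in the higher direction was reached by 1 (3.55% of all genes did). Their median log2 difference was 0.06, against -0.01 over all genes. With CDDO-Me in control media the same genes had a median log2 difference of 1.76 from vehicle, and 26 of 31 rose (3.23% of all genes did). Nqo1, an NADPH quinone reductase, was at 104, 79.0 and 219 TPM in media/CDDO-Me and at 156, 133 and 190 TPM in NRF2 KO CM/CDDO-Me, against a mean of 3.37 ± 1.38 TPM (SD, n = 3) in media/vehicle. Hmox1, heme oxygenase, was at 989, 940 and 1394 TPM against 1036, 954 and 1390 TPM. The groups also overlapped for Gclm and Srxn1, while Txnrd1, thioredoxin reductase, was at 613, 606 and 666 TPM against 572, 561 and 412 TPM (log2 -0.28, SE 0.16, adjusted p = 0.775). Keap1 was at 46.4, 47.8 and 47.4 TPM against 47.2, 51.3 and 29.2 TPM. Between WT CM and NRF2 KO CM, both with CDDO-Me, 20 of the 31 targets were lower (11.8% of all genes were) and 1 higher (14.3%) with WT CM, with a median log2 difference of -0.84.

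Inflammatory genes of classical activation leaned higher as a group. Of 23 tested, 21 were higher with NRF2 KO CM (48.2% of all genes were) and 2 lower, with a median log2 difference of 0.44. Saa3 and Fpr2 were the 2 that passed (0.154% of all genes did in this direction). A further member, Il1b, which encodes the cytokine interleukin-1 beta, was at 2.10, 0.418 and 0.114 TPM in media/CDDO-Me and at 9.35, 8.44 and 33.7 TPM in NRF2 KO CM/CDDO-Me. Its log2 difference of 3.15 (SE 0.69) missed the threshold by limma (adjusted p = 0.0786, with the replicate block 0.0213). Without replicate 3 of both NRF2 KO CM groups the difference for Il1b was 2.50 (adjusted p = 0.221 by limma). Il6 was at 0.454, 1.28 and 0.617 TPM against 2.65, 2.05 and 3.11 TPM (log2 1.04, SE 0.43, adjusted p = 0.597), and Nfkbiz, a regulator of NF-kB target genes, at 6.78, 8.25 and 6.05 TPM against 10.8, 11.3 and 11.04 TPM (adjusted p = 0.260). Nos2, the inducible nitric oxide synthase, was under 0.4 TPM in all 6 libraries.

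Of 25 chemokines tested, 20 were higher (48.2% of all genes were) and 5 lower, with a median log2 difference of 0.26, and only Cxcl5 passed (0.154% of all genes did in this direction). Cxcl1, a ligand of the same receptor as Cxcl5, was at 2.80, 1.61 and 2.07 TPM against 11.2, 7.83 and 9.24 TPM, with a log2 difference of 1.73 (SE 0.40, adjusted p = 0.0953 by limma, with the block 0.0186). Pf4 was at 62.9, 70.9 and 73.7 TPM against 124, 131 and 131 TPM (log2 0.90, adjusted p = 0.140, with the block 0.0156). Ccl6 was at 175, 158 and 146 TPM against 307, 232 and 291 TPM (adjusted p = 0.306). Among receptors 0 of 22 passed (0.190% of all genes did). Cx3cr1, the fractalkine receptor, was at 11.9, 13.3 and 6.61 TPM against 5.57, 6.73 and 1.23 TPM (log2 -1.20, SE 0.37, adjusted p = 0.323, with the block 0.0263, and log2 -0.68 without replicate 3 of both NRF2 KO CM groups). With the block 2 receptors were also past the threshold in the higher direction (96 of all 13661 genes were), Ccr1 and Il1r1, which lie outside the rule for named genes. Their log2 differences were 1.37 and 0.65, with adjusted p-values by limma of 0.0356 and 0.0233 with the block and 0.516 and 0.611 without it. Both receptors overlapped between the groups. Without replicate 3 of both NRF2 KO CM groups the log2 differences were 0.72 for Ccr1 and 0.83 for Il1r1.

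Interferon-induced genes and antigen presentation genes had small median differences from control media. Of 45 interferon response genes tested, 1 passed, Iigp1 (0.154% of all genes did in this direction). Of the 45, 32 were higher (48.2% of all genes were) and 13 lower, with a median log2 difference of 0.14. The groups did not overlap for 12 in the higher and 3 in the lower direction (931 and 942 of all 13661 genes). With WT CM and CDDO-Me all 45 passed as higher than with NRF2 KO CM and CDDO-Me (14.3% of all genes did), by a median of 3.25. Cxcl9 was under 0.2 TPM in all 6 libraries, and Cxcl10 was at 0.036, 0.665 and 0.595 TPM against 1.32, 0.873 and 1.497 TPM. Of 12 MHC class II and 22 MHC class I genes, 0 passed in either direction (0.190% of all genes did), with medians of 0.19 and -0.13. H2-Ab1 was at 129, 132 and 137 TPM against 168, 171 and 253 TPM (log2 0.55, SE 0.31, adjusted p = 0.770), and Cd74 was at 732, 647 and 718 TPM against 745, 709 and 1192 TPM. B2m, the light chain of MHC class I, was at 4175, 3940.3 and 4131 TPM against 3760.1, 3609 and 7284 TPM, so only replicate 3 lay above the controls. Cd274, which encodes PD-L1, overlapped between the groups.

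Alternative activation genes showed no common direction. Of 29 tested 0 passed (0.190% of all genes did), 15 were higher (48.2% of all genes were) and 11 lower, and the median was 0.05. Retnla was listed at 0 in all 6 libraries, Arg1, which encodes arginase, was under 0.5 TPM in each, and Chil3 overlapped between the groups. Mrc1, the mannose receptor, was at 134, 137 and 105 TPM in media/CDDO-Me and at 199, 221 and 258 TPM in NRF2 KO CM/CDDO-Me (log2 0.86, SE 0.23, adjusted p = 0.194 by limma). Il4ra, the interleukin-4 receptor chain, was at 64.0, 64.1 and 57.0 TPM against 92.1, 85.3 and 87.2 TPM (log2 0.53, adjusted p = 0.0960, with the block 0.0322). Clec10a, a galactose-binding lectin, was at 40.4, 43.6 and 30.5 TPM against 57.4, 72.2 and 55.3 TPM (log2 0.70, adjusted p = 0.137, with the block 0.0425). The groups did not overlap for 6 members in the higher and 3 in the lower direction (931 and 942 of all 13661 genes). Those 3 were Pparg, Folr2 and Egr2, with log2 differences of -0.51, -0.51 and -0.54. Pparg had the smallest p of the list (adjusted p = 0.0953 by limma, with the block 0.03985).

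Stress, lysosome, lipid and cell cycle lists had few genes past the threshold. Over all genes tested, 48.2% were higher, 0.154% passed in the higher direction and 0.0366% in the lower. Of 29 genes of the integrated stress response, 24 were lower and 5 higher, with a median of -0.17, and only Atf3 passed. Phgdh, of serine synthesis, was at 25.4, 29.4 and 31.5 TPM against 20.3, 19.7 and 12.8 TPM (adjusted p = 0.251 by limma). Of 25 lysosome and cathepsin genes, 17 were lower and Ctsc passed in the higher direction. Lpl, lipoprotein lipase, was at 2447, 2461 and 2244 TPM against 1476, 1679 and 1212 TPM (log2 -0.71, adjusted p = 0.0953, with the block 0.0415), and 0 of 16 LXR and lipid efflux genes passed, or 2 with the block, both lower. Of 24 cholesterol synthesis genes 0 passed, 18 were higher and 6 lower, and the median was 0.15. Of 15 fatty acid synthesis genes 0 passed, 7 were higher and 8 lower, and the median was -0.01, while Hmgcs1 and Scd1 overlapped between the groups. Of 37 cell cycle genes 0 passed and 27 were lower, with a median of -0.14. The other lists, with 10 to 30 genes each, had 0 genes past the threshold and medians between -0.16 and 0.13: NRF2 pathway regulators, glycolysis and hypoxia, heat shock chaperones, metallothionein and iron, complement and Fc receptors, angiogenic factors, prostaglandin and leukotriene genes, checkpoint and costimulatory ligands, and pentose phosphate and NADPH genes. With the block 96 of all 13661 genes passed in the higher direction and 64 in the lower. Those from these other lists included C3, Fcgr2b, Tnfsf9, Mmp8 and Hspb1, with log2 differences of 1.04, 1.39, 0.96, 2.13 and -1.02. Those of Mmp8 and Hspb1 were 1.34 and -0.50 without replicate 3 of both NRF2 KO CM groups.

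Several list medians depended on replicate 3 of the NRF2 KO CM groups. Without it in both groups, the median went from 0.06 to -0.02 for NRF2 targets, from -0.14 to 0.03 for cell cycle genes and from -0.16 to 0.03 for angiogenic factors. It went from -0.13 to -0.03 for MHC class I, from 0.19 to 0.10 for MHC class II, from -0.17 to -0.11 for integrated stress response genes and from 0.11 to 0.07 for receptors. The medians of chemokines and of glycolysis and hypoxia genes were larger without it, 0.44 in place of 0.26 and 0.25 in place of 0.11, while that of classical activation genes was 0.36 in place of 0.44. The medians of the interferon, cholesterol synthesis, lysosome and LXR lists moved by less than 0.02.

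**Figure D5:**
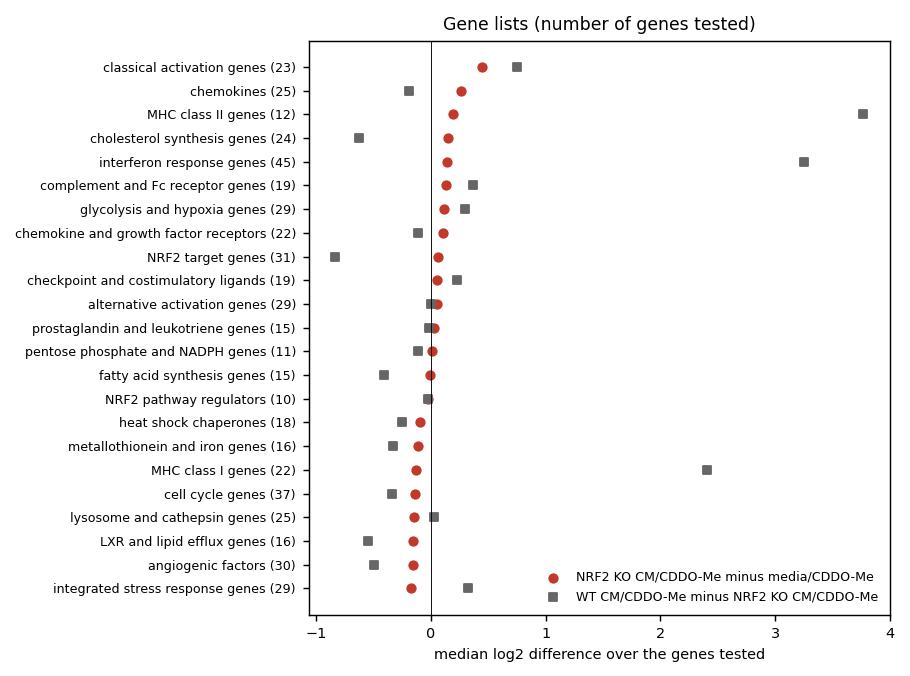
Median log2 difference of each gene list (number of genes tested in parentheses) for NRF2 KO CM/CDDO-Me minus media/CDDO-Me (red circles) and for WT CM/CDDO-Me minus NRF2 KO CM/CDDO-Me (grey squares). The red medians stay between -0.17 and 0.44, while the grey medians of the interferon, MHC class II and MHC class I lists are 3.25, 3.77 and 2.41.

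The labelled cell type was checked against its markers, and markers of other cells were summed. All 16 macrophage markers were above 0 and tested, and 0 passed (0.190% of all genes did). Their summed level was, without overlap, 28090 to 31390 TPM in media/CDDO-Me and 34620 to 43180 TPM in NRF2 KO CM/CDDO-Me. The higher sum lay in Lyz2, the most abundant, and the sum of the remaining markers overlapped between the groups. Lyz2 was at 21541, 19302 and 18008 TPM against 28918, 25285 and 34332 TPM (adjusted p = 0.178 by limma, with the block 0.0407). Of the 16 markers, 11 were higher (48.2% of all genes were) and 5 lower, with a median log2 difference of 0.08. Csf1r and Adgre1 overlapped between the groups. The 15 neutrophil and granulocyte precursor markers summed to 159.7 to 227.1 TPM against 233.5 to 879.6 TPM, with Ly6g and Retnlg at 0 in all 6 libraries. Most of the higher sum was Mmp8, at 53.8, 35.9 and 99.9 TPM against 184, 125 and 711 TPM, and 0 of 8 tested passed, although Mmp8 did with the block (adjusted p = 0.00227 by limma, against 0.358 without). The 20 fibroblast and stromal markers summed to 2838 to 6623 TPM against 1931 to 5187 TPM, with a median log2 difference of -0.42 that was 0.04 without replicate 3 of both NRF2 KO CM groups, the 11 dendritic cell markers to 342.5 to 434.5 against 184.8 to 335.3 TPM, and the 14 lymphocyte markers to 97.26 to 125.7 against 109.8 to 140.3 TPM. Markers of erythroid, mast and basophil cells summed to 3.103 to 5.122 against 2.219 to 6.763 TPM, and those of endothelial and epithelial cells to 30.19 to 58.16 against 30.58 to 48.23 TPM. Without the block no gene of these lists passed, and their part in the genes that did was not tested.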

How the data were processed

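Values from 24 BMDM libraries of 8 groups were used, with groups and replicate numbers taken from the sample titles. According to the study's methods, poly-A RNA was sequenced as paired-end reads, pseudo-aligned with Kallisto to GRCm39 transcripts, filtered, TMM-normalized and compared with limma. The authors deposited TPM per gene name, which sum to 1000000 in every library. The depth of each library is therefore unknown, and the study's methods give only an average. One line without a gene name (0.0199 to 0.0635% of TPM) was left out.

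TPM were scaled by unweighted trimmed means of M values (trims 30% and 5%), 1 was added as pseudocount, and the log2 values of the 13661 genes above 1 TPM in at least 3 libraries were fitted with limma 3.58.1 in R 4.3.3, with a trend and all 8 groups in 1 fit (16 residual degrees of freedom). Two-sided p-values were adjusted by Benjamini-Hochberg over all genes tested, with a threshold of 0.05. The comparison, gene lists and named genes were chosen with earlier results of these data known, so lists were only counted. Named genes were the 12 largest rises and falls past the threshold without overlap and with a mean of at least 1 TPM, filled to 12 by smallest p among genes with a mean of at least 5 TPM, up to 4 members of each list by p and 2 by level, and a fixed set, of which the text prints part, since some items are not reported here. The code was tested on simulated data with independent libraries. It found 62 of 100 planted log2 differences of 1 and 92 of 100 of 2. Another 15 calls, 8.88% of those made, were false. With 3 libraries against 3, an exact permutation test cannot go below p = 0.1, so none was used.

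Replicate numbers were checked for pairing. Deviations from group means of same-numbered libraries in the compared groups correlated across genes with r from 0.111 to 0.367. Libraries of other numbers gave r from -0.366 to 0.179, so the ranges overlapped. Replicates 1 and 2 also correlated across numbers (0.101 and 0.179). The same-number values were above the limit of 0.1 set for pairing, so the numbers were taken to pair these samples. The main fit nevertheless held no block and so ignored this pairing, and the block was an alternative. Genes said to pass or not to pass are those of the main fit unless another fit is named. For the vehicle groups the lowest r was 0.0860, and for WT CM with NRF2 KO CM 0.0231, so those were not treated as paired, although 71 of 84 same-numbered pairs over all groups were above 0.1 (mean 0.256, against -0.121 for other numbers). No 2 libraries were identical. Gene positions are from GENCODE vM39 on GRCm39. Alternatives were other scalings, filters, pseudocounts, weights, fits and left-out libraries. Figures were drawn with matplotlib 3.10.9.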

Additional observations from a re-analysis of the deposited data

How the results depend on the processing

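For NRF2 KO CM/CDDO-Me against media/CDDO-Me, the count of 26 genes stayed within 1.5 times under both other scalings, TPM above 5, a pseudocount of 5 and no trend (20 to 29). It moved to 14 without a filter, 10 with a pseudocount of 0.1, 754 with array weights (384 higher, 370 lower), 160 with the replicate block and 0 with only the groups compared. Among alternatives chosen after seeing the data, it was 0 with only the 12 CDDO-Me libraries, 880 with the block and array weights together and 205 with the block and without replicate 3 of both NRF2 KO CM groups. Leaving out 1 library, or replicate 3 of both NRF2 KO CM groups (11), gave 4 to 15. The cause of these moves was not tested, beyond the fewer samples in some fits. All 26 genes stayed past the threshold with array weights and with the block.

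For NRF2 KO CM/vehicle against media/vehicle, where the lowest same-number correlation missed the limit of 0.1 set for pairing, 1 gene became 0 without scaling, 2 without a filter, 4 with array weights, 3 with the replicate block, 0 with only the groups compared, and 0 to 3 with libraries left out. The interaction count of 0 became 1 without a filter and 7 with array weights, and was 0 to 1 with libraries left out. For WT CM/CDDO-Me against NRF2 KO CM/CDDO-Me, 3558 genes became 7097 with array weights, 2316 with only the groups compared, 4659 with the block and 2646 to 5419 with libraries left out.

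Of 410 repeats for the 26 genes, 217 kept the call, 193 lost it and 0 reversed. Of 920 repeats for 58 named genes that did not pass, 54 passed and 17 reversed, in 7 genes near 0. With array weights Keap1, B2m and Cd274 became 0.037, -0.13 and -0.028, and without scaling Hmgcs1 became -5.74e-04. With 1 library left out, log2 differences ran from -0.17 to 0.26 for Hmox1, -0.28 to 0.026 for Keap1, -0.080 to 0.16 for Arg1, -0.18 to 0.42 for B2m, -0.056 to 0.20 for Adgre1, -0.28 to 0.39 for Cd274 and -0.050 to 0.095 for Hmgcs1. TPM keep no depth of the single libraries, so what depth limits in each cannot be stated.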

Other observations

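The genes with the largest differences in either direction did not pass, and were picked after their values were seen. Gm4202 had a log2 difference of 4.52 (SE 1.19, adjusted p = 0.178 by limma) and Rpl17-ps3 of 3.90 (SE 2.01, adjusted p = 0.730), while Gm12895 and Gm12896 had the same values to 3 digits, -2.87 (SE 2.10, adjusted p = 0.825). Where such predicted genes and pseudogenes are near copies of others, their TPM are uncertain.

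Aldh3a1, an aldehyde dehydrogenase among the NRF2 targets, was at 4.33, 1.59 and 14.9 TPM in media/CDDO-Me and at 17.6, 12.2 and 20.3 TPM in NRF2 KO CM/CDDO-Me, with a log2 difference of 1.53 (SE 0.55, adjusted p = 0.441) that ran from 0.90 to 2.26 with 1 library left out. Tnfsf4, the ligand of the costimulatory receptor OX40, was at 0.477, 0.685 and 1.39 TPM against 2.45, 2.34 and 9.85 TPM, with a log2 difference of 1.46 (SE 0.39, adjusted p = 0.178) that was 0.87 without NRF2 KO CM/CDDO-Me replicate 3. Alox5, the 5-lipoxygenase of leukotriene synthesis, was at 2.16, 2.46 and 3.16 TPM against 5.15, 6.26 and 4.48 TPM (log2 0.81, SE 0.23, adjusted p = 0.235). Apoc2, an activator of lipoprotein lipase, was at 56.0, 47.4 and 28.3 TPM against 81.0, 74.6 and 66.7 TPM (log2 0.81, SE 0.26, adjusted p = 0.358). The groups did not overlap for the last 3 genes, as for 13.7% of all genes tested.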
